A study of Mus musculus with 18 samples.

Results

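Fos, Fosb, Fosl2, Jun, Junb, Jund and Atf3 encode transcription factors with a basic leucine zipper, and these 7 genes were taken by name from the 18683 genes of the deposited table. Their transcripts were measured by bulk RNA sequencing in hippocampus and prefrontal cortex of male mice, labelled as strain C57BL/6J throughout. The 3 groups were 5xFAD mice injected with human breast milk extracellular vesicles (5xFAD EV), 5xFAD mice given phosphate-buffered saline (5xFAD PBS) and wildtype mice given the same saline (WT PBS). 5xFAD mice carry mutated human transgenes, APP among them, under the neuronal Thy1 promoter and form amyloid plaques. All mice, wildtypes included, had 10 intravenous injections, 1 every 3 days, from 5 to 6 months of age, then behavioural tests, anaesthesia and perfusion with cold saline. Each group had 3 libraries per tissue, 18 in all, with 26437852 to 36901744 reads in the listed genes, recovered from the steps of the deposited values. Levels are FPKM (fragments per kilobase of gene, scaled to the size of the library) and can be compared between genes because they are scaled by gene length.

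Fos proteins pair with Jun proteins to form AP-1, a factor that binds short DNA sites at enhancers and promoters. In neurons, synaptic activity and calcium entry switch on Fos, Fosb and Junb within minutes as immediate early genes, through kinases that act on factors such as CREB, SRF and Elk1, and their transcripts then decay fast. Jun and Jund have higher resting levels, and Atf3, of the ATF family, is known as a stress and injury gene in neurons and as a gene of activated macrophages.

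The promoters of all members but Jund, whose level varied least, are shown, so that those of Fos, Fosb, Fosl2 and Junb, which varied together over the libraries, can be read beside those of Jun and Atf3. Each is the 140 bases before the RefSeq start in GRCm38.p6, 5′ to 3′ on the gene's strand, with matches to TGACG, the core that CREB binds, or to TGACATCA, the AP-1 element described in the Jun promoter, in capitals. Fosl2 holds neither. Fos lies at chr12:85473750-85473889 (plus strand), Fosb at chr7:19310046-19310185 (minus strand), Fosl2 at chr5:32136332-32136471 (plus strand), Junb at chr8:84978749-84978888 (minus strand), Jun at chr4:95052223-95052362 (minus strand) and Atf3 at chr1:191183334-191183473 (minus strand).
Fos: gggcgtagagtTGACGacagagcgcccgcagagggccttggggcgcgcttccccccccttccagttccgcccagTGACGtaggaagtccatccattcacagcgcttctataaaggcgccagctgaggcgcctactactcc
Fosb: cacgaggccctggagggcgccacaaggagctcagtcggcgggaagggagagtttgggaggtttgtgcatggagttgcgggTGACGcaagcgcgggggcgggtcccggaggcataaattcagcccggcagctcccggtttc
Fosl2: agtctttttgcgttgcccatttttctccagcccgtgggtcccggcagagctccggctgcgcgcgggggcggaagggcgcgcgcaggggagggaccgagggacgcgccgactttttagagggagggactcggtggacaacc
Junb: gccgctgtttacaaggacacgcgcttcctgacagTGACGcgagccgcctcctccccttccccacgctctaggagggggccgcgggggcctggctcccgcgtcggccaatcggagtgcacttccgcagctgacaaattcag
Jun: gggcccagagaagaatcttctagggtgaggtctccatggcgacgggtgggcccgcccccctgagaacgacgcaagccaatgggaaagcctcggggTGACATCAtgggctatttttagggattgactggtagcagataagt
Atf3: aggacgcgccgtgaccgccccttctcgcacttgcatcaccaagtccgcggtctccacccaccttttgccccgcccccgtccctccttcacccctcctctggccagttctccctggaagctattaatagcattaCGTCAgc

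All 7 genes matched a RefSeq promoter by Entrez identifier. In the 250 bases before the start, TGACG on either strand was found in 4 of the 7: in Fos 129 and 66 bases before the start, in Fosb 60 bases before it, in Junb 106 bases before it and, on the opposite strand, in Atf3 7 bases before it. Of all 32851 RefSeq promoters, 17.8% held TGACG in a window of that length. The full CREB site TGACGTCA, which contains TGACG on both strands, was in none of the 7 and in 1.55% of all. The AP-1 site TGACTCA was in none of the 7 and in 4.46% of all, and the CArG box, to which SRF binds, in none of the 7 and in 1.47%. TGACATCA was found in Jun alone among the 7, 45 bases before the start, and in 2.93% of all. A TATAAA stretch was found in Fos alone among the 7, 33 bases before the start, and in 12.4% of all. These letters describe the windows only. Sites further from the start were not looked for, and no binding was measured.

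The levels set 2 kinds of member apart. Jund was the steadiest, at 40.1 to 54.4 FPKM over all 18 libraries, and its group means lay between 44.9 ± 4.42 (5xFAD EV hippocampus) and 49.7 ± 4.19 FPKM (WT PBS cortex; SD, n = 3 each). Fos spanned 1.80 to 26.4 FPKM, Junb 14.2 to 59.2 FPKM and Atf3 0.529 to 2.34 FPKM. The fewest reads behind any value were 38, for Atf3, and the most were 5104, for Jund. The plot of levels by library shows Jund flat, Jun split by tissue, and Fos, Fosb and Junb highest in wildtype cortex.

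**Figure D1:**
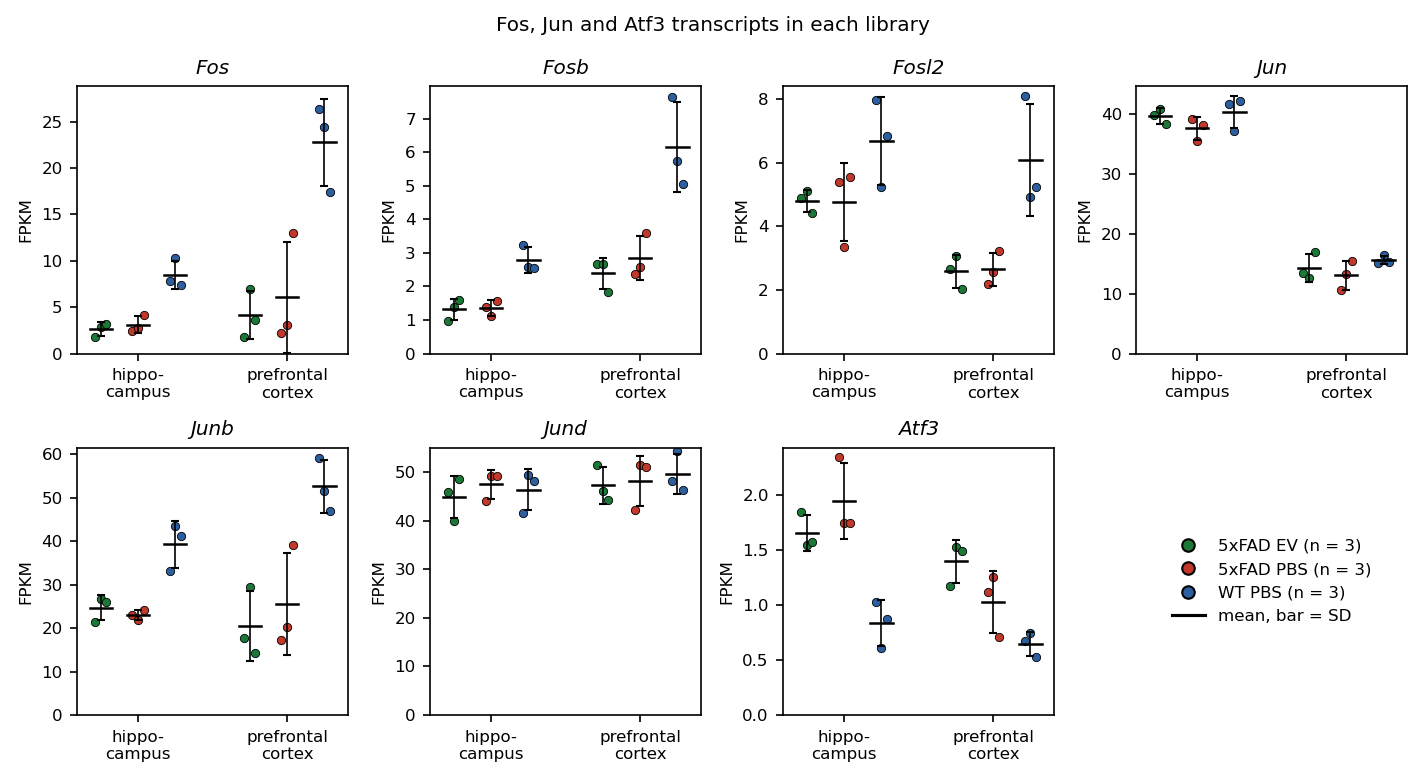
FPKM of each gene (vertical axes) in every library, by tissue and group, with group means (lines) and SD (bars), n = 3 libraries per group. Fos stood at 17.4 to 26.4 FPKM in wildtype cortex, above every other library, and Jun at 35.5 to 42.2 FPKM in hippocampus, against 10.6 to 17.05 FPKM in cortex.

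In hippocampus, 5xFAD mice given PBS had lower Fos, Fosb and Junb and higher Atf3 than wildtype mice given PBS. Fos, the founding member of its family, stood at 2.45, 2.70 and 4.17 FPKM in the 5xFAD PBS libraries and at 7.79, 10.2 and 7.35 FPKM in the WT PBS libraries. Every 5xFAD PBS library was below every wildtype library, and the 5xFAD PBS mean was 36.7% of the wildtype mean. Fos fell by 1.33 on the log2(FPKM + 0.5) scale, the scale of all differences below (standard error, SE, 0.22, limma adjusted p = 0.0086), the fifth lowest difference of the 13305 genes tested. Junb, a Jun protein that is itself an immediate early gene product, stood at 23.1, 21.9 and 24.1 FPKM in 5xFAD PBS and at 33.2, 43.4 and 41.2 FPKM in WT PBS libraries. The 5xFAD PBS libraries lay close together and all below wildtype, a fall of Junb by 0.75 (SE 0.12, limma adjusted p = 0.0065). Fosb, whose truncated splice product accumulates with repeated stimulation, stood at 1.39, 1.11 and 1.57 FPKM in 5xFAD PBS, against 3.23, 2.58 and 2.55 FPKM in WT PBS libraries. The groups did not overlap, and Fosb fell by 0.82 (SE 0.16, limma adjusted p = 0.019), although the splice forms are not separated in these values.

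Atf3 went the other way in hippocampus. It stood at 2.34, 1.75 and 1.74 FPKM in 5xFAD PBS libraries and at 1.02, 0.606 and 0.875 FPKM in WT PBS libraries, without overlap, and rose by 0.88 (SE 0.15, limma adjusted p = 0.011). Fosl2, a Fos protein without the strong activation domain of Fos, stood at 5.39, 3.34 and 5.56 FPKM in 5xFAD PBS and at 7.98, 5.23 and 6.83 FPKM in WT PBS libraries, and the groups overlapped (-0.46, 95% interval -0.89 to -0.03, limma adjusted p = 0.24). Jun stood at 39.3, 35.5 and 38.2 FPKM in 5xFAD PBS and 41.7, 37.2 and 42.2 FPKM in WT PBS libraries (-0.10, interval -0.27 to 0.07). Jund stood at 44.0, 49.2 and 49.3 FPKM in 5xFAD PBS and 41.6, 49.4 and 48.3 FPKM in WT PBS libraries (0.03, interval -0.19 to 0.26, and -0.02 with libraries rescaled to a common median). Neither Jun nor Jund passed the test, and both had overlapping groups.

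In all, 3 of the 7 genes were called lower in hippocampus, against 0.406% of the genes tested, and 1 was called higher, against 4.19%. The 3 lower genes had groups without overlap, as did 9.03% of all tested genes in that direction, and 16.5% in the other direction, that of Atf3. Over the 6 fits that each left out 1 library, Fos, Junb and Atf3 were called in all 6. Fosb was called in 2 of the 6. Its limma adjusted p was 0.080 without WT PBS replicate 1, 0.060 without WT PBS replicate 2, 0.057 without 5xFAD PBS replicate 1 and 0.072 without 5xFAD PBS replicate 2.

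In prefrontal cortex, the same comparison gave lower Fosb and Fosl2, while Fos, with the widest gap, also had the widest spread and did not pass. Fos stood at 2.17, 3.06 and 13.0 FPKM in 5xFAD PBS and at 26.4, 24.4 and 17.4 FPKM in WT PBS libraries. All 5xFAD PBS libraries were below all wildtype libraries, but replicate 3 stood far above the other 5xFAD PBS libraries. The Fos difference was -2.19 (SE 0.56, 95% interval -3.43 to -0.94), the second lowest of 13055 genes, at a limma adjusted p of 0.11. Junb had the same high library, with 17.3, 20.4 and 39.0 FPKM in 5xFAD PBS and 59.2, 51.6 and 46.9 FPKM in WT PBS libraries. The groups did not overlap, and the Junb difference of -1.11 (SE 0.30) had a limma adjusted p of 0.15. Without 5xFAD PBS replicate 3, both genes passed, Fos at -2.89 (limma adjusted p = 0.0089) and Junb at -1.45 (limma adjusted p = 0.028).

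Fosb stood at 2.36, 2.58 and 3.61 FPKM in 5xFAD PBS cortex and at 7.65, 5.76 and 5.07 FPKM in WT PBS cortex. The groups were apart, with replicate 3 again the highest of its group, and Fosb fell by 0.99 (SE 0.19, limma adjusted p = 0.023, and 0.061 in a fit blocked by replicate number, which it did not pass). Fosl2 stood at 2.18, 2.56 and 3.21 FPKM in 5xFAD PBS and at 8.11, 4.92 and 5.23 FPKM in WT PBS libraries. These were also apart, and Fosl2 fell by 1.05 (SE 0.20, limma adjusted p = 0.024, and 0.065 with the block). Jun, Jund and Atf3 had overlapping groups and did not pass. Jun stood at 10.6, 13.3 and 15.4 FPKM in 5xFAD PBS, against 15.1, 16.4 and 15.4 FPKM in WT PBS cortex (-0.26, interval -0.57 to 0.05). Jund stood at 42.3, 51.4 and 51.1 FPKM in 5xFAD PBS, against 48.3, 54.4 and 46.4 FPKM in WT PBS cortex (-0.04, interval -0.27 to 0.18). Atf3 stood at 1.12, 1.25 and 0.708 FPKM in 5xFAD PBS, against 0.676, 0.743 and 0.529 FPKM in WT PBS cortex, and only replicate 3, the library with the highest Fos, reached the wildtype range (0.40, interval 0.04 to 0.75, limma adjusted p = 0.51).

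In cortex, 2 of the 7 genes were called lower, against 0.138% of the genes tested, and 4 were lower without overlap, against 4.99%. Each of these calls held in 2 of the 6 fits that left out 1 library. The differences stayed at -1.15 to -0.83 for Fosb and -1.17 to -0.84 for Fosl2 in those fits. The same fits called 142 to 218 genes in all, against 256 with all libraries, so a lost call does not single out the library left out. Fosb did not pass without WT PBS replicate 1 (limma adjusted p = 0.11), WT PBS replicate 2 (0.058), 5xFAD PBS replicate 1 (0.11) or 5xFAD PBS replicate 2 (0.11). Fosl2 did not pass without WT PBS replicate 1 (limma adjusted p = 0.085), WT PBS replicate 3 (0.055), 5xFAD PBS replicate 1 (0.11) or 5xFAD PBS replicate 2 (0.10). Without a filter on low values, the limma adjusted p was 0.067 for Fosb and 0.070 for Fosl2.

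5xFAD PBS replicate 3 of cortex was also the highest of its group in some other activity genes, though not in Nr4a3, Vgf or Bdnf, which were highest in replicate 2. Arc, whose product acts at synapses, stood there at 34.8 FPKM, against 9.65 and 11.2 FPKM in the other 5xFAD PBS cortex libraries. Egr1, a zinc finger immediate early factor, stood at 68.1 FPKM, against 32.3 and 41.9 FPKM in those libraries. Within 5xFAD EV cortex, replicate 2 was the highest in Fos (6.92 FPKM), Junb (29.5 FPKM) and Arc (24.8 FPKM, against 13.4 and 12.3 FPKM). The summed level of 8 striatal neuron markers was the highest of its group in the same 2 libraries, 311 FPKM in 5xFAD PBS replicate 3, against 222 and 219 FPKM, and 358 FPKM in 5xFAD EV replicate 2, against 63.4 and 125 FPKM. In wildtype cortex the library with the highest striatal sum, replicate 3 (391.6 FPKM, against 127 and 154 FPKM), had the lowest Fos. The part of neighbouring tissue in these levels was not tested.

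**Figure D2:**
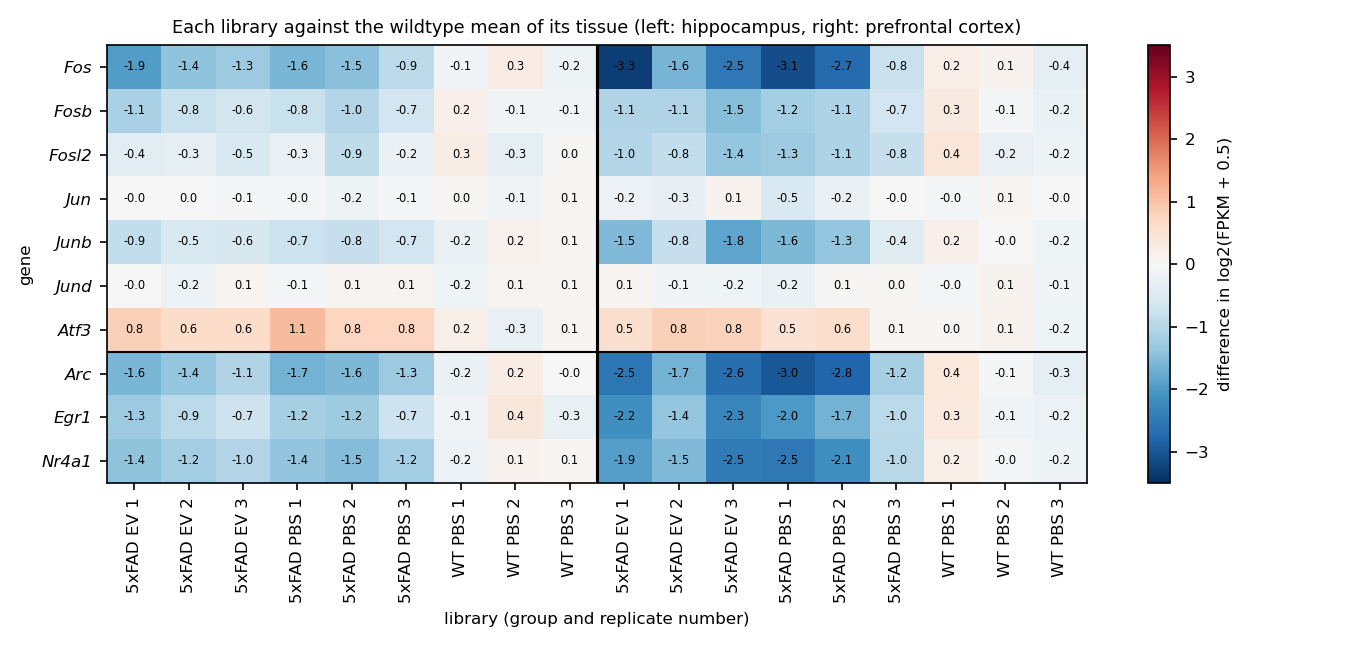
Difference in log2(FPKM + 0.5) of every library from the wildtype mean of its tissue (colour and printed value), for the 7 genes and for Arc, Egr1 and Nr4a1, with libraries along the horizontal axis. Fos, Fosb and Junb were below 0 in all 12 5xFAD libraries, Fos and Junb least so in 5xFAD PBS replicate 3 of cortex, and Atf3 was above 0 in all 12.

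Markers of other cell types differed between these groups. Summed over 12 microglial markers, the level was 1607 to 1737 FPKM in 5xFAD PBS hippocampus, against 407 to 474 FPKM in WT PBS hippocampus, and 1081 to 1115 FPKM in 5xFAD PBS cortex, against 399 to 498 FPKM in WT PBS cortex. Of the 12, 11 were called higher in each tissue. Of all genes, 4.19% were called higher in hippocampus. In cortex 256 of all 13055 genes were called, 18 of them lower. The 8 glutamatergic neuron markers summed to 2050 to 2253 FPKM in 5xFAD PBS hippocampus, against 2272 to 2485 FPKM in WT PBS hippocampus, and to 2313 to 2373 FPKM in 5xFAD PBS cortex, against 2042 to 2306 FPKM in WT PBS cortex. Of these 8, 0 were called in either tissue. All 8 were lower in 5xFAD PBS hippocampus, against 45.6% of all genes (median -0.19, against 0.02 over all genes). In 5xFAD PBS cortex 4 were lower, against 43.0% of all genes (median -0.0057, against 0.02 over all genes). The 8 GABAergic neuron markers summed to 146 to 188 FPKM in 5xFAD PBS hippocampus, against 208 to 214 FPKM in WT PBS hippocampus, and overlapped in cortex. The 10 choroid plexus markers summed to 2634 to 8956 FPKM in 5xFAD PBS hippocampus, against 37.4 to 171 FPKM in WT PBS hippocampus. Astrocyte markers (8) summed to 827 to 1011 FPKM in 5xFAD PBS hippocampus, against 574 to 602 FPKM in WT PBS hippocampus, and to 524 to 574 FPKM in 5xFAD PBS cortex, against 443 to 486 FPKM in WT PBS cortex. In hippocampus 2 of these 8 were called higher, against 4.19% of all genes, and in cortex 1, beside the 256 genes called there. The sum in cortex does not describe the list, as 4 of the 8 were lower in 5xFAD PBS there. Their median difference in cortex was 0.03, against 0.02 over all genes. In hippocampus, the 8 hippocampal neuron markers summed to 136 to 165 FPKM in 5xFAD PBS, against 168 to 196 FPKM in WT PBS, and the 8 meningeal fibroblast markers to 93.1 to 189 FPKM in 5xFAD PBS, against 45.6 to 87.0 FPKM in WT PBS. There, 0 markers of the GABAergic, hippocampal neuron and meningeal fibroblast lists were called. Of the 10 choroid plexus markers, 7 were called higher in hippocampus, against 4.19% of all genes. No marker of these lists was at 0 in all libraries of a group, and their part in the levels of the 7 genes was not tested. In such bulk samples, fewer cells of a type and less RNA per cell cannot be told apart.

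The make-up of the pool of AP-1 transcripts is given by its sum and shares. Summed over the 6 Fos and Jun genes, the level was 118 ± 3.84 FPKM in 5xFAD EV, 117 ± 4.84 FPKM in 5xFAD PBS and 144 ± 7.34 FPKM in WT PBS hippocampus (SD, n = 3 each). In cortex it was 91.3 ± 9.07 FPKM in 5xFAD EV, 98.5 ± 24.6 FPKM in 5xFAD PBS and 153 ± 14.7 FPKM in WT PBS. The 3 Fos genes made up 7.39%, 7.82% and 12.5% of the sum in 5xFAD EV, 5xFAD PBS and WT PBS hippocampus, and 9.82%, 11.1% and 22.7% in the same groups of cortex. Jund alone made up 38.0%, 40.5% and 32.2% in these groups of hippocampus and 52.2%, 50.3% and 32.6% in cortex, at an almost level Jund FPKM. These sums count transcripts, and protein was not measured.

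**Figure D3:**
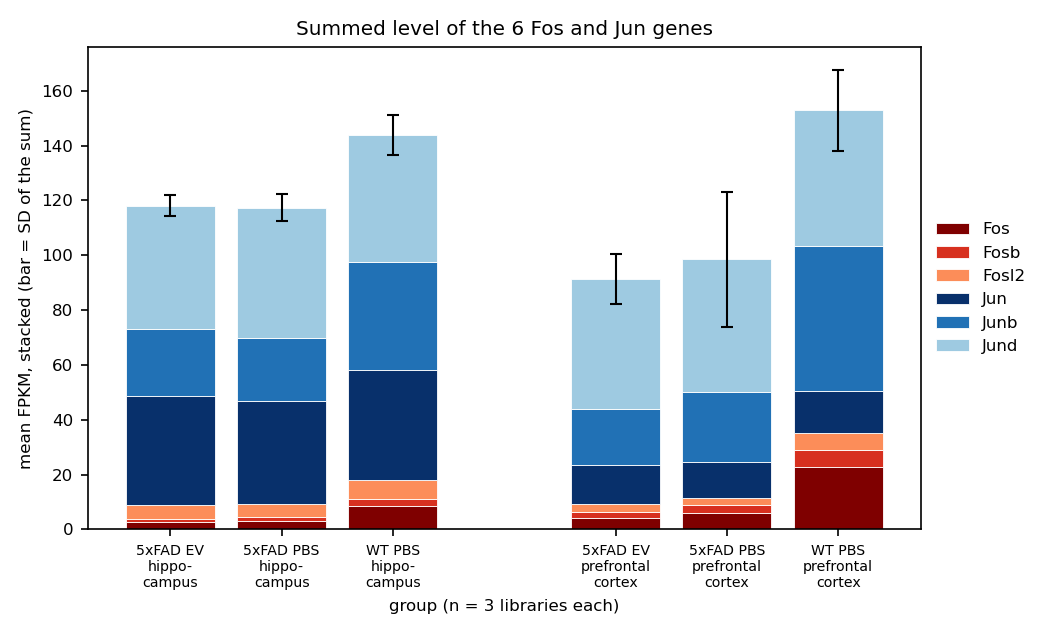
Mean FPKM of the 6 Fos and Jun genes stacked by group (vertical axis), with the SD of the sum over 3 libraries as bars. The stack stood at 118, 117 and 144 FPKM in 5xFAD EV, 5xFAD PBS and WT PBS hippocampus and at 91.3, 98.5 and 153 FPKM in cortex, with Fos and Junb the segments that differ most between the groups of 1 tissue and Jun the one that differs most between tissues.

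The vesicle comparison, 5xFAD EV against 5xFAD PBS, asks whether these genes differ in 5xFAD mice after vesicles. None of the 7 passed in either tissue. In hippocampus, Fos stood at 1.80, 2.84 and 3.21 FPKM in 5xFAD EV, beside the 5xFAD PBS values above, with overlap and a difference of -0.21 (95% interval -0.71 to 0.29). Fosb stood at 0.981, 1.399 and 1.59 FPKM (-0.03, interval -0.40 to 0.33) and Fosl2 at 4.88, 5.09 and 4.42 FPKM (0.04, interval -0.40 to 0.47) in 5xFAD EV hippocampus. Jun stood at 39.98, 41.0 and 38.4 FPKM (0.08, interval -0.09 to 0.25), Junb at 21.4, 26.7 and 26.1 FPKM (0.09, interval -0.17 to 0.36) and Jund at 46.0, 40.1 and 48.7 FPKM (-0.08, interval -0.31 to 0.14). Atf3 stood at 1.84, 1.55 and 1.57 FPKM (-0.18, interval -0.52 to 0.17). All 7 genes had overlapping groups, without a share over all genes to set beside this count.

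In cortex, Fos stood at 1.81, 6.92 and 3.58 FPKM in 5xFAD EV, and the spread within both 5xFAD groups left a wide interval (-0.29, interval -1.53 to 0.95). Fosb stood at 2.66, 2.67 and 1.85 FPKM (-0.21, interval -0.63 to 0.21) and Fosl2 at 2.65, 3.08 and 2.03 FPKM (-0.03, interval -0.48 to 0.41). Jun stood at 13.4, 12.6 and 17.05 FPKM (0.13, interval -0.18 to 0.44), Junb at 17.6, 29.5 and 14.2 FPKM (-0.29, interval -0.97 to 0.38) and Jund at 51.6, 46.1 and 44.3 FPKM (-0.02, interval -0.25 to 0.20). Atf3 stood at 1.17, 1.52 and 1.49 FPKM (0.33, interval -0.03 to 0.68). Again all 7 genes overlapped between the groups. The share over all genes is not given for the vesicle comparison, so the overlap is not read as a trait of these genes. 5xFAD EV cortex replicate 3, which held the lowest Fosb, Fosl2 and Junb of its group, stood apart in its markers. Its glutamatergic neuron sum was 1495 FPKM, against 2025 and 2598 FPKM in the other 5xFAD EV cortex libraries, its GABAergic sum 534 FPKM, against 263 and 303 FPKM, and its choroid plexus sum 868 FPKM, against 7.06 and 13.9 FPKM. Without that library none of the 7 passed, and their differences lay between -0.28 for Fos and 0.29 for Atf3.

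By limma, 0% of 13305 genes in hippocampus and 0% of 13055 genes in cortex were called between 5xFAD EV and 5xFAD PBS, with 519 and 616 genes at an unadjusted p under 0.05, none of them among the 7. Voom on the recovered reads likewise called 0 genes in both tissues. The intervals for Jun and Jund reach at most 0.44 on the log2 scale in either tissue, while that of Fos in cortex reaches -1.53. At the spread of Fos in cortex, even its larger genotype difference of -2.19 did not pass.

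**Figure D4:**
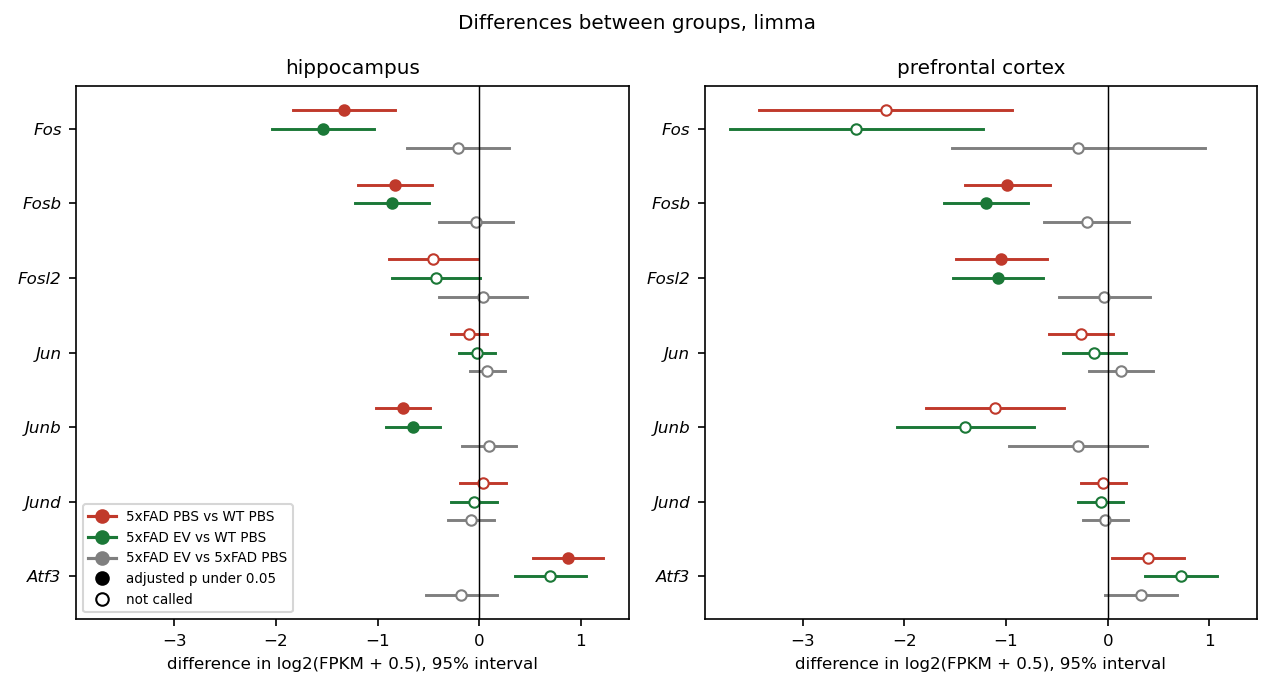
Difference in log2(FPKM + 0.5) with its 95% interval (horizontal axis) for each gene, in hippocampus and cortex, for 5xFAD PBS against WT PBS, 5xFAD EV against WT PBS and 5xFAD EV against 5xFAD PBS. Filled points have a limma adjusted p under 0.05. All intervals of the vesicle comparison include 0, and the widest is that of Fos in cortex, -1.53 to 0.95.

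Vesicle-treated 5xFAD mice were also set against wildtype mice. This comparison shares its wildtype libraries with the genotype comparison and its vesicle libraries with the one above, so its values stand beside theirs and do not add to them. In hippocampus, 2.10% of genes were called, 0.173% lower. Fos fell by 1.54 (SE 0.22, limma adjusted p = 0.0066), Fosb by 0.86 (SE 0.16, limma adjusted p = 0.024) and Junb by 0.65 (SE 0.12, limma adjusted p = 0.020), and Atf3 was 0.70 higher without passing (limma adjusted p = 0.055). Fos passed in all 6 fits that left out 1 library. Fosb did not pass without WT PBS replicate 1 (limma adjusted p = 0.097), 2 (0.080) or 3 (0.067) or 5xFAD EV replicate 1 (0.072) or 2 (0.069). Junb did not pass without WT PBS replicate 2 (limma adjusted p = 0.10), WT PBS replicate 3 (0.091) or 5xFAD EV replicate 1 (0.067). Fosl2 did not pass in hippocampus (-0.42, limma adjusted p = 0.42), although its groups did not overlap, like 7.92% of all genes in that direction. In cortex, 1.52% of genes were called, 0.115% lower. Fosb fell by 1.198 (SE 0.19, limma adjusted p = 0.010, and 0.056 without WT PBS replicate 1) and Fosl2 by 1.08 (SE 0.20, limma adjusted p = 0.026). Fosl2 did not pass without WT PBS replicate 1 (0.092), WT PBS replicate 3 (0.053), 5xFAD EV replicate 1 (0.081) or 5xFAD EV replicate 3 (0.068), each a limma adjusted p. Fos, at -2.47 the lowest difference of all 13055 genes (limma adjusted p = 0.065), Junb (-1.402, 0.055) and Atf3 (0.72, 0.059) did not overlap with wildtype, like 5.74% of genes in the lower and 13.6% in the higher direction, and did not pass. Without 5xFAD EV replicate 2, Junb passed in cortex (-1.70, limma adjusted p = 0.022). Without 5xFAD EV replicate 3, the library that stood apart, Fosb still passed in cortex (-1.05, limma adjusted p = 0.025). Microglial markers were also higher in this comparison, 11 of 12 called in hippocampus (summed 1217 to 2222 FPKM in 5xFAD EV, against 407 to 474 FPKM in WT PBS) and 10 of 12 in cortex (805 to 1104 FPKM in 5xFAD EV, against 399 to 498 FPKM in WT PBS), and their part was not tested.

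The genotype difference itself was compared between tissues, because a call in 1 tissue does not show a difference between them. By limma on all 18 libraries, 0 of 13574 genes (0%) and none of the 7 differed in this way, with 787 genes at an unadjusted p under 0.05, and voom on the recovered reads also called 0. The difference, hippocampus minus cortex, was 0.86 for Fos (95% interval -0.57 to 2.29), 0.36 for Junb (-0.41 to 1.13), 0.17 for Fosb (-0.39 to 0.72) and 0.59 for Fosl2 (-0.04 to 1.22). For Jun it was 0.16 (-0.19 to 0.52), for Jund 0.08 (-0.23 to 0.38) and for Atf3 0.48 (0.0018 to 0.96, limma adjusted p = 0.86). Of the 7, Fosb alone passed in both tissues in the genotype comparison. The plot of both tissues shows values below 0 in both for Fos, Fosb, Fosl2 and Junb, of which Fosl2 did not pass in hippocampus and Fos and Junb did not pass in cortex, and values above 0 for Atf3, which did not pass in cortex.

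**Figure D5:**
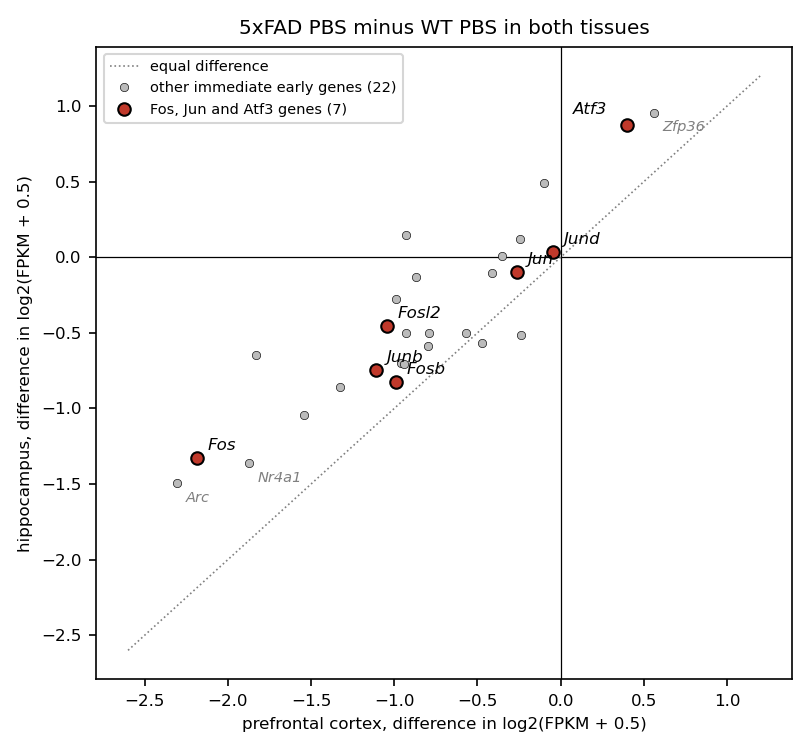
Difference between 5xFAD PBS and WT PBS in log2(FPKM + 0.5), cortex on the horizontal and hippocampus on the vertical axis, for the 7 genes (red) and 22 other immediate early genes (grey), with a dotted line of equal difference. Fos stands at -2.19 in cortex and -1.33 in hippocampus, and 17 of the 22 other genes are below 0 in both tissues. Of all genes tested, 43.0% were below 0 in cortex and 45.6% in hippocampus. The share below 0 in both is not given.

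Between tissues of 1 group, Jun was the gene that differed most clearly. Hippocampus had 38.4 to 41.0 FPKM in 5xFAD EV, 35.5 to 39.3 FPKM in 5xFAD PBS and 37.2 to 42.2 FPKM in WT PBS, against 12.6 to 17.05, 10.6 to 15.4 and 15.1 to 16.4 FPKM in cortex of the same groups. Jun was higher in hippocampus by 1.45 in 5xFAD EV (limma adjusted p = 4.7e-07), 1.501 in 5xFAD PBS (3.2e-07) and 1.34 in WT PBS (1.1e-06), and it passed in all 6 fits that left out 1 library in each group. Such tissue differences were common, with 8.60% of genes called higher in hippocampus in 5xFAD EV, 15.3% in 5xFAD PBS and 8.72% in WT PBS, and 8.32%, 9.78% and 7.16% called lower in the same groups. Fosb was lower in hippocampus in all 3 groups, with differences of -0.67 in 5xFAD EV (limma adjusted p = 0.020), -0.84 in 5xFAD PBS (0.0034) and -1.005 in WT PBS (0.0011). In 5xFAD EV mice, Fosb did not pass without cortex replicate 1 (0.071), cortex replicate 2 (0.076) or hippocampus replicate 1 (0.10).

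Fosl2 was higher in hippocampus by 0.79 in 5xFAD EV (limma adjusted p = 0.016) and 0.72 in 5xFAD PBS (0.019) and stood at 0.14 in WT PBS (interval -0.31 to 0.58, did not pass). The 5xFAD EV value did not pass without cortex replicate 3 (limma adjusted p = 0.067) or hippocampus replicate 2 (0.054). The 5xFAD PBS value did not pass without cortex replicate 1 (0.089), cortex replicate 2 (0.0502), hippocampus replicate 1 (0.069) or hippocampus replicate 3 (0.072). Atf3 was higher in hippocampus by 0.69 in 5xFAD PBS (limma adjusted p = 0.0049, and passing in all 6 such fits), and was 0.19 and 0.21 higher in 5xFAD EV and WT PBS without passing. Fos differed by -1.37 between wildtype hippocampus and wildtype cortex, without overlap, like 14.4% of genes in that direction (limma adjusted p = 0.064, and 0.015 by voom on the recovered reads). With a block by group and replicate number, its limma adjusted p was 0.012. Junb and Jund did not pass between tissues in any group.

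In the order of mean levels, Fos was lowest in the 4 5xFAD groups, which overlapped with each other (2.62 ± 0.733 FPKM in 5xFAD EV hippocampus to 6.06 ± 5.99 FPKM in 5xFAD PBS cortex). Above them stood wildtype hippocampus (8.46 ± 1.56 FPKM), with which 5xFAD PBS cortex overlapped, and then wildtype cortex (22.8 ± 4.70 FPKM), apart from all others. Junb had both wildtype groups in the same places, but another order among the 5xFAD groups. Those stood at 20.5 (5xFAD EV cortex) to 25.6 FPKM (5xFAD PBS cortex) on average and overlapped. Wildtype hippocampus stood at 39.2 ± 5.36 FPKM, with which 5xFAD PBS cortex overlapped, and wildtype cortex at 52.6 ± 6.20 FPKM. For Fosb, both 5xFAD hippocampus groups (1.32 and 1.36 FPKM) stood below all other groups, and wildtype cortex (6.16 ± 1.34 FPKM) above all others. For Fosl2, both 5xFAD cortex groups (2.58 and 2.65 FPKM) stood below every hippocampal library, and both wildtype groups (6.68 ± 1.38 FPKM in hippocampus and 6.09 ± 1.75 FPKM in cortex) were highest and overlapped. Atf3 had its own order, with 5xFAD PBS hippocampus highest (1.94 ± 0.344 FPKM) and wildtype cortex lowest (0.649 ± 0.110 FPKM), and neighbours in that order overlapped except 5xFAD EV hippocampus and 5xFAD EV cortex, which were apart.

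Likeness between genes was measured as Pearson's r over the 18 libraries after removal of each tissue's mean, among 13574 genes. The libraries share their groups and depth, so r describes a common pattern and carries no test. The genes most like Fos were Arc (0.97), Egr1 (0.96), Arl4d (0.96), Junb (0.95) and Nr4a1 (0.95). Junb was closest to Nr4a1, Arc, Egr1, Egr4 and Fos (0.95 to 0.97), and Fosb to Nr4a1, Egr1, Dusp6, Vgf and Arc (0.93 to 0.95). Fosl2 was closest to the nuclear receptor gene Nr4a3 (0.93), then to Fosb, Dusp6, Nr4a1 and Dnajb5 (0.88 to 0.91). Jun and Jund kept other company at lower r. Jun was closest to Gmeb2 (0.80), Zw10, Bcl6, Yy1 and Emc1, and Jund to Ei24 (0.87), Gpx7, Gatad1, Rtl8b and Elp5. Atf3 was closest to the splicing factor gene Srsf6 (0.90), the sheddase gene Adam17 (0.88), Mamdc2, Niban1 and the Toll adaptor gene Ticam2 (0.88). Among the members, r was 0.95 between Fos and Junb, 0.90 between Fos and Fosb, 0.82 between Fos and Fosl2, 0.26 between Fos and Jund and -0.77 between Fos and Atf3.

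The rest of the pathway was described with 4 lists. Of 23 other immediate early genes, all tested in hippocampus, 7 were called lower and 1 higher in 5xFAD PBS than in WT PBS. Of all genes, 0.406% were called lower and 4.19% higher. In sign, 17 of the 23 were below 0, against 45.6% of all genes (median -0.50, against 0.02 over all genes). The 4 lowest of the called genes were Arc (-1.50), the nuclear receptor Nr4a1 (-1.36), Egr1 (-1.04) and the zinc finger factor Klf10 (-0.71). The gene called higher was Zfp36 (0.96), which encodes an RNA-binding protein that destabilises cytokine transcripts. Without single libraries, 4 to 8 genes of this list were called lower in hippocampus. In cortex, 8 of 22 were called lower and 0 higher, against 0.138% of all genes called lower. In sign, 21 of the 22 were below 0, against 43.0% of all genes (median -0.83, against 0.02 over all genes). The called genes were led by Arc (-2.31), Nr4a1 (-1.87), Egr2 (-1.83) and Egr1 (-1.54). With the replicate block 2 genes of the list were called lower in cortex, and without single libraries 1 to 7. Egr2, which encodes a zinc finger factor, passed with the block (limma adjusted p = 0.024) and in all 6 fits that left out 1 library. Arc (0.061), Nr4a1 (0.065) and Egr1 (0.064) did not pass with the block. Between 5xFAD EV and 5xFAD PBS, 0 genes of this list were called in either tissue by limma (median -0.05 in hippocampus, -0.13 in cortex).

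Of 21 other AP-1 and basic leucine zipper genes, 17 were tested in hippocampus, and Nfe2l2, which encodes the antioxidant factor Nrf2, was among those called higher in 5xFAD PBS than in WT PBS (0.87). Fosl1, the remaining Fos gene, was at most 0.0959 FPKM in any library and was not tested. Of 30 tested kinases and factors upstream of AP-1, 2 were called higher and 1 called lower in 5xFAD PBS hippocampus. These were the ETS factor Elk3 (0.76), the kinase gene Rps6ka1 (0.44) and the ETS factor Elk1 (-1.31). In sign, 21 of the 30 were below 0 there, against 45.6% of all genes. Of all genes, 4.19% were called higher and 0.406% lower, so the count of genes called higher is near the background. Elk3 was called in 1 of 6 fits without 1 library, and Rps6ka1 and Elk1 in 0. Elk1 stood at 9.46 to 11.5 FPKM in 5xFAD PBS and at 25.8 to 27.6 FPKM in WT PBS hippocampus. In 5xFAD EV hippocampus, whose libraries stayed in all 6 fits and share the estimate of spread, it stood at 10.4, 10.3 and 23.9 FPKM. Elk1 also spread within 5xFAD cortex, over 10.0 to 20.3 FPKM in 5xFAD PBS and 9.31 to 17.6 FPKM in 5xFAD EV. The cause of this spread was not tested. In cortex 0 of 30 were called. Of 18 tested late-response genes described as AP-1 targets, 2 were called lower in 5xFAD PBS hippocampus, against the same 0.406% of all genes. These were the neuropeptide precursor Vgf (-0.77, called in all 6 fits without 1 library) and Gadd45b (-0.43, called in 1 of 6 such fits). In sign, 14 of the 18 were below 0 there, against 45.6% of all genes. In cortex 1 was called lower, the neurotrophin Bdnf (-0.71, called in 1 of 6 such fits), and 14 of 18 were below 0, against 43.0% of all genes. By limma, 0 genes of these 3 lists were called between 5xFAD EV and 5xFAD PBS in either tissue.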

How the data were processed

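Gene levels were deposited by the authors as FPKM for 18683 genes in 18 libraries. Per the submitters' processing notes, fastp, HISAT2, HTSeq and GRCm39 were used, with roles and versions not given there, and the use of strand and of reads shared between genes is not given in the sources used here, so reads of overlapping or antisense genes are not separated with certainty. Per the labels' protocols, the VAHTS Universal V5 kit was used for the libraries and an Illumina NovaSeq for sequencing. Groups and replicate numbers came from the sample titles. Nothing says that replicates are separate mice, so p-values measure only how these libraries vary, and that spread may be technical.

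FPKM is not a count, so tests were run in limma 3.58.1 (R 4.3.3) on log2(FPKM + 0.5), which understates changes of low genes, with eBayes and an intensity trend. The 9 libraries of a tissue were fitted together, and all 18 for differences between tissues. Genes had at least 0.5 FPKM in at least 3 libraries of the fit (13305 in hippocampus, 13055 in cortex, 13574 in both), and all 7 members passed this filter. Tests were two-sided, with Benjamini-Hochberg adjustment over all genes tested and calls at an adjusted p under 0.05. Intervals are 95% intervals from limma.

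Whole reads were recovered for 100% of genes, as multiples of a common step per gene within a relative tolerance of 1e-06. They served for voom with TMM library sizes as an alternative test. In cortex, same-numbered 5xFAD PBS and WT PBS libraries deviated in the same direction from the means of their groups (r of 0.22, 0.52 and 0.17), so the values with a replicate block are given there. This pairing comes from the values, not from the labels. Other alternatives were the pseudocount, the filter, rescaling, robust eBayes, fits of the compared groups alone and each library left out. The fit was tested on simulated data. Named genes were the 7 members, the 5 genes most like each, and up to 4 called genes per list, direction and comparison. The members and lists were chosen with earlier results of these data known, and some results for these lists are not reported here. Promoters came from RefSeq (GRCm38.p6), another build than that of the files.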

Additional observations from a re-analysis of the deposited data

Results flagged for a closer look

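Atf3 is listed because its 5xFAD EV libraries lay on opposite sides of the 5xFAD PBS mean in the 2 tissues. All 3 5xFAD EV libraries were below the 5xFAD PBS mean in hippocampus (1.84, 1.55 and 1.57 FPKM in 5xFAD EV, against a mean of 1.94 FPKM in 5xFAD PBS) and all 3 were above it in cortex (1.17, 1.52 and 1.49 FPKM in 5xFAD EV, against a mean of 1.03 FPKM in 5xFAD PBS). The difference of these vesicle differences, hippocampus minus cortex, was -0.50 on the log2(FPKM + 0.5) scale (SE 0.23, 95% interval -0.98 to -0.024). It did not pass the test across all genes (limma adjusted p = 0.99). With 680 of 13574 genes at an unadjusted p under 0.05 in that test and 0 called, Atf3 is 1 of many at this level. The summed choroid plexus markers were 190 FPKM in 5xFAD EV hippocampus replicate 3 and 868 FPKM in 5xFAD EV cortex replicate 3, the lowest and the highest of their groups, and their part was not tested.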

How the results depend on the processing

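Jun in 5xFAD or wildtype hippocampus against cortex, and Fos, Junb and Atf3 in 5xFAD PBS against WT PBS hippocampus, kept their direction and call under every alternative run. The members called in 5xFAD PBS against WT PBS cortex dropped to 0 of 7 without a filter on low values and with the replicate block, and ranged over 0 to 4 without single libraries. In 5xFAD EV against WT PBS cortex, 1 was called without the filter or with the block, 4 by voom and 0 to 3 without single libraries, and in hippocampus 1 to 3. Values near 0 changed sign: Jund in 5xFAD PBS against WT PBS hippocampus was -0.021 with rescaled libraries and -0.018 by voom, and the tissue difference of the vesicle comparison was 0.021 and 0.0075 for Jun and 0.015 and 0.0029 for Jund in the same fits. The cause was not tested.

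Genes called in all ranged over 142 to 218 without single libraries in 5xFAD PBS against WT PBS cortex, below the 256 called with all libraries, and over 320 to 446 in hippocampus, below 611. They ranged over 89 to 229 in 5xFAD EV against WT PBS cortex (198 with all libraries, 118 with the compared groups alone), 159 to 278 in hippocampus (280 with all), 2140 to 3320 between tissues in 5xFAD PBS (3410 with all), and 0 to 1 for 5xFAD EV against 5xFAD PBS in each tissue. Between tissues in 5xFAD EV, 1275 were called with the compared groups alone, a fit of fewer samples, against 2297 in the fit of all groups. The cause of this drop was not tested. The tissue difference of the vesicle comparison had 1 gene called without a filter.

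Without single libraries, values that crossed 0 ranged as follows. In 5xFAD PBS against WT PBS, Jund ranged over -0.092 to 0.048 in cortex and -0.042 to 0.088 in hippocampus. In 5xFAD EV against 5xFAD PBS cortex, Jun ranged over -0.0086 to 0.25, Jund -0.12 to 0.024, Fos -0.75 to 0.42, Fosl2 -0.15 to 0.10 and Junb -0.59 to 0.053. In hippocampus, Fosl2 ranged over -0.18 to 0.15 and Fosb -0.14 to 0.11. In 5xFAD EV against WT PBS hippocampus, Jun ranged over -0.077 to 0.012 and Jund -0.12 to 0.031. Between tissues, Jund ranged over -0.11 to 0.035, Fos -0.97 to 0.20 and Junb -0.29 to 0.29 in 5xFAD PBS, and Jund -0.14 to 0.0025 in 5xFAD EV. The tissue difference of the genotype comparison ranged over -0.014 to 0.13 for Jund. That of the vesicle comparison ranged over -0.17 to 0.087 for Jun, -0.12 to 0.034 for Jund, -0.63 to 0.54 for Fos and -0.14 to 0.19 for Fosl2.

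Besides 5xFAD PBS against WT PBS cortex, same-numbered libraries had r above 0 in every pair only between tissues of 5xFAD PBS. There r was 0.41, 0.51 and 0.016. In no comparison did every library correlate best with its own number. Outside 5xFAD PBS against WT PBS cortex, the block moved Fosl2 in 5xFAD EV against WT PBS cortex to a limma adjusted p of 0.057. It moved Fosb in 5xFAD EV against WT PBS hippocampus to 0.059 and Atf3 there to 0.036. It also moved Fos between wildtype tissues to 0.012, and changed no other call of a member. Depth limits Atf3 most, with 38 to 155 reads per library.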
